A study of Mus musculus with 3 samples.

Results

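The 9 genes described here encode interleukin 31 receptor A (Il31ra), the oncostatin M receptor (Osmr), the ligands oncostatin M (Osm), leukaemia inhibitory factor (Lif) and interleukin 6 (Il6), the leukaemia inhibitory factor receptor (Lifr), the interleukin 6 receptor alpha chain (Il6ra), the shared signal-transducing chain gp130 (Il6st) and the feedback inhibitor Socs3. They were taken by symbol from the 33696 genes of the deposited matrices, and each symbol occurred 1 time. Il31ra was picked because its level in macrophages was lower with cigarette smoke in these libraries, so that difference is given as a description and supports nothing here.

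The study profiled single nuclei of the abdominal aorta from ApoE-/- mice of the C57Bl/6 strain, which lack apolipoprotein E and develop atherosclerosis. All mice were fed a high-fat diet, and the exposure lasted 20 weeks. There were 3 libraries, 1 for mice kept in room air, 1 for mice exposed to cigarette smoke that had no abdominal aortic aneurysm, and 1 for mice exposed to cigarette smoke that had one. They are called the room air, smoke and aneurysm libraries. Every group therefore shared the ApoE deletion and the diet. The sources used here do not give the age or sex of the mice or how many animals went into a library. With 1 library per group no difference could be set against the spread between replicates, and no test was made. The intervals below are exact 95% intervals that cover counting error only.

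Cytokines of the interleukin 6 family signal through receptor complexes that mostly contain gp130. Interleukin 6 first binds its alpha receptor, leukaemia inhibitory factor pairs its receptor with gp130, and oncostatin M pairs gp130 with the oncostatin M receptor. Interleukin 31 uses its own receptor A together with the oncostatin M receptor and without gp130. All of these complexes activate JAK kinases and STAT factors, STAT3 above all, and Socs3 is a STAT3 target whose protein binds gp130 and dampens the signal. In the vessel wall the family is studied in inflammation, in the acute phase response and in the activation of endothelium and fibroblasts.

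STAT dimers bind the palindrome TTCNNNGAA, which reads the same on both strands. RefSeq promoter windows on GRCm38.p6, from 250 bases before to 50 bases after a gene's start, were found for 8 of the 9 genes, Osm being the gene with none. The palindrome was present in the windows of 2 of them, Il31ra and Socs3, and in 8.3% of the 32851 mouse windows of the same length. The windows are printed because one belongs to the gene picked for its difference between the libraries and the other to the feedback inhibitor of the pathway. The capitals mark the palindrome, whose first base lay at -191 from the start in Il31ra and at -154 in Socs3. A match describes these letters and is not a binding site.
Il31ra, chr13:112580613-112580912, minus strand: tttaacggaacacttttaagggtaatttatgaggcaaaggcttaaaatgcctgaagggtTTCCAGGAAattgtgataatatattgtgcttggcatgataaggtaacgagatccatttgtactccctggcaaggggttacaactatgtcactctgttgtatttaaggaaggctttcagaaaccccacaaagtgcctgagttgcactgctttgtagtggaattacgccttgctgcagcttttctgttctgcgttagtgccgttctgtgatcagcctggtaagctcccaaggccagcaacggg
Socs3, chr11:117969317-117969616, minus strand: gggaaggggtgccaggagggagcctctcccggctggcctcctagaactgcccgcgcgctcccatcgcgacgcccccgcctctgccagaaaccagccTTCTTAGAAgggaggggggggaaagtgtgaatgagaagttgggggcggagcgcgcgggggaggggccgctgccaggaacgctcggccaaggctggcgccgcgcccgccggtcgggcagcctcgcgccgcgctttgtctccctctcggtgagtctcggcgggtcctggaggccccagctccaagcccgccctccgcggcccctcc

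In the GENCODE annotation of GRCm38, Il31ra (ENSMUSG00000050377) spans chr13:112519898-112594360 on the minus strand and Il6st lies beside it at chr13:112464070-112510086 on the plus strand. The RefSeq start of Il31ra used for the window lies inside the GENCODE span. A processed pseudogene, Gm3226, overlaps the 5′ end of the Il31ra span and is not among the features of the matrices. Osm and Lif are neighbours on chromosome 11 at 4236420 to 4241026 and 4257557 to 4272514, and Osmr and Lifr both lie on chromosome 15. Il6ra on chromosome 3 is overlapped by the antisense gene Gm42809, which had 7, 22 and 1 unique molecular identifiers (UMIs, each counting 1 captured RNA molecule) in the room air, smoke and aneurysm libraries. No source states whether strand was used in counting, and without it reads of such a pair cannot be told apart.

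The matrices held 13189, 14859 and 7348 barcodes, and 11022, 14001 and 5707 of them were kept as nuclei. The libraries differed in depth, with medians of 4058.5 UMIs per nucleus in room air, 6225 in smoke and 1443 in aneurysm. Of the barcodes kept, 36 were shared between the room air and smoke libraries, 26 between room air and aneurysm and 17 between smoke and aneurysm. The nuclei formed 24 clusters, and 19 of them received a cell class name from marker genes, written with "-like", while clusters 1, 7, 12, 14 and 20 stayed unnamed. Unnamed clusters held 20.1% of room air nuclei, 19.9% of smoke nuclei and 38.0% of aneurysm nuclei. Clusters 7 and 12 scored highest for smooth muscle markers without passing the naming rule, cluster 14 was led by Pcdh17, Reln and Mmrn1, and cluster 1 held shallow nuclei led by Gm48099 and Ighm. A level is given in CPM, the UMIs of a gene per 1000000 UMIs of the class in 1 library, for classes with at least 50 nuclei.

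Macrophage-like nuclei numbered 4083 in room air, 4737 in smoke and 691 in aneurysm, from clusters 3, 4, 5, 10 and 19. All 14 macrophage markers had UMIs in the class in each library, and their summed level was 5860, 7155 and 7644 CPM. The makeup of the class differed between the libraries. Cluster 19, led by the resident macrophage genes Cd163, F13a1 and Lyve1 and by Clec10a, made up 2.38% of the class in room air, 4.50% in smoke and 48.8% in aneurysm. Of the other marker lists, the 8 monocyte markers summed to 19, 24.1 and 157 CPM in the macrophage-like class, with Ly6c2, Chil3 and Treml4 at 0 in aneurysm. The 9 dendritic markers summed to 32.9, 32.0 and 75 CPM, with Xcr1 and Ccr7 at 0 in aneurysm, and the 9 smooth muscle markers to 34.4, 41.1 and 94.2 CPM. The 11 fibroblast markers summed to 161, 177 and 226 CPM and the 10 endothelial markers to 179, 165 and 292 CPM, with none at 0. Not all lists were highest in aneurysm. The 8 adipocyte markers summed to 512, 597 and 505 CPM, and the 11 T or NK markers to 25.6, 29.9 and 9.63 CPM. The part of such RNA in the levels below was not tested.

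**Figure D1:**
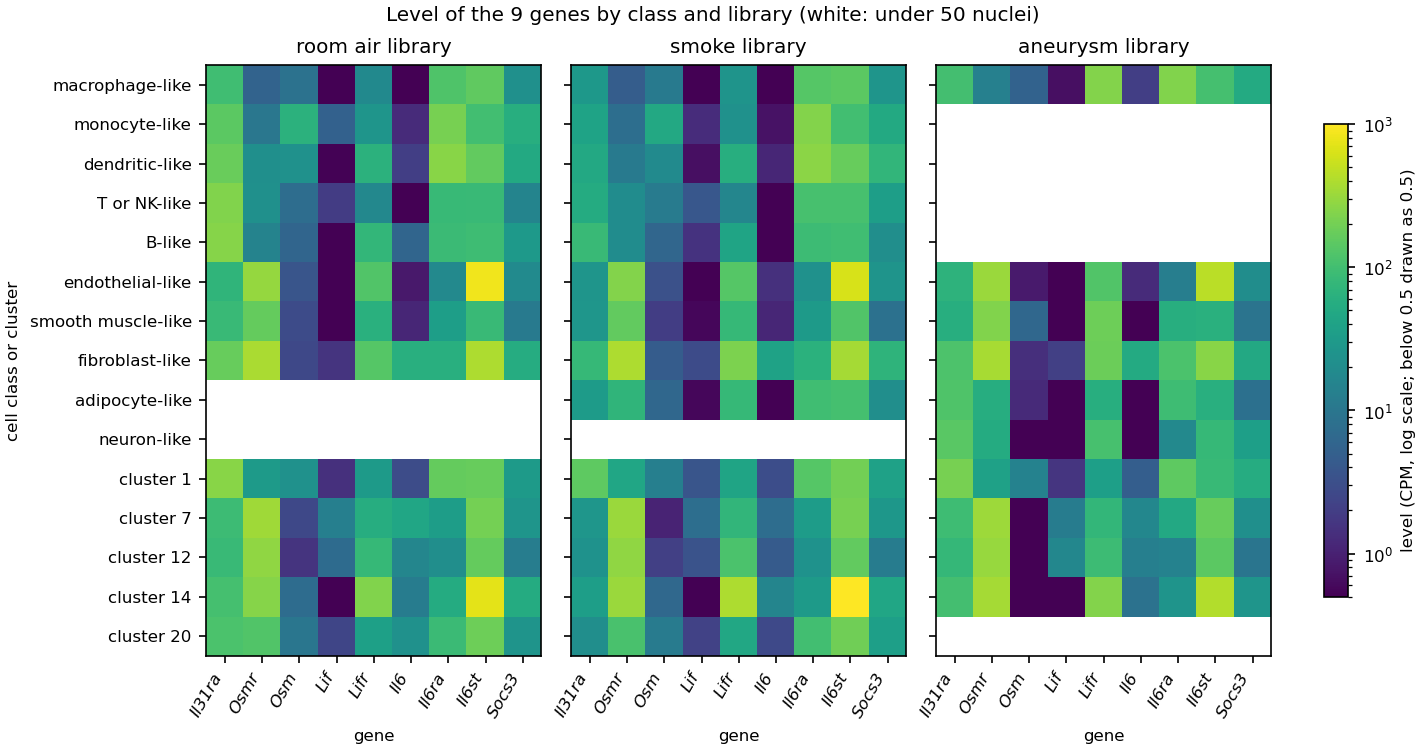
Level of the 9 genes (columns) in each cell class or unnamed cluster (rows) for the 3 libraries (panels), as CPM on a logarithmic colour scale; white marks classes with under 50 nuclei. Il31ra is present in every class of a library, whereas Osmr, Osm, Il6, Lifr and Il6st each stand out in a few classes.

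Il31ra was detected in every class of every library with 50 nuclei. Over the nuclei kept its level was 102 CPM in room air, 33.6 CPM in smoke and 105 CPM in aneurysm. In macrophage-like nuclei it was 96.8 CPM (93.4 to 100.4) in room air, 28.8 CPM (27.3 to 30.3) in smoke and 101.8 CPM (86.1 to 119.6) in aneurysm. The smoke library was the low one, and the room air and aneurysm intervals overlapped.

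Outside the macrophages, in which the gene was not picked, the order of the libraries was similar. In endothelial-like nuclei the level was 72.3 CPM in room air, 26.2 CPM in smoke and 67.9 CPM in aneurysm. In smooth muscle-like nuclei it was 85.4, 27.1 and 59.3 CPM in the same order. In fibroblast-like nuclei it was 170.9, 81.8 and 119.6 CPM, where 1 smoke nucleus held 81 of the 318 UMIs. The smoke library was the lowest in each of these classes. It was also below room air in the lymphoid and other myeloid classes, for which the aneurysm library had too few nuclei. Monocyte-like nuclei had 149.4 CPM in room air and 40.6 CPM in smoke, dendritic-like nuclei 174.1 and 48.6 CPM, T or NK-like nuclei 235.3 and 54.3 CPM, and B-like nuclei 254.7 and 87.1 CPM.

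Ordered by Il31ra level, the room air classes began with cluster 1 (256.7 CPM), B-like and T or NK-like nuclei, whose intervals overlapped from each to the next and lay above that of dendritic-like nuclei. From there to endothelial-like nuclei, the lowest at 72.3 CPM, every class overlapped its neighbour in the order. In smoke, cluster 1 (150.4 CPM) lay above B-like nuclei, fibroblast-like nuclei lay above T or NK-like nuclei, and the remaining neighbours overlapped down to 21.2 CPM in cluster 20. In aneurysm the order ran from cluster 1 (213.3 CPM) through neuron-like (145 CPM) and adipocyte-like nuclei (124 CPM) to smooth muscle-like nuclei (59.3 CPM), and each class overlapped the next. The intervals cover counting error, and the spread between animals is not known.

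Expressed as a ratio of smoke to room air, Il31ra was 0.297 (0.279 to 0.316) in macrophage-like nuclei, that is 3.37-fold lower (3.16 to 3.59). Over the 13 classes and clusters with 50 nuclei in both libraries the ratio ran from 0.183 in cluster 20 to 0.586 in cluster 1, with a median of 0.298. It was at least 1.5-fold lower in 13 of 13, while between 3.35% and 12.3% of the measured genes were at least 1.5-fold lower in those classes. Because the classes of a library share its preparation and depth, these 13 values are not independent. The macrophage-like value, for which the gene was picked, is 1 of the 13, so the count is a description. Without the nucleus that held 81 UMIs the fibroblast-like ratio was 0.373 in place of 0.479.

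The aneurysm library, also from smoke-exposed mice, did not share the low level. The ratio of aneurysm to smoke was 3.54 (2.97 to 4.20) in macrophage-like nuclei and ran from 1.42 to 3.79 over 9 classes. It was at least 1.5-fold higher in 7 of the 9, where between 10.4% and 21.5% of measured genes were. The ratio of aneurysm to room air ran from 0.695 to 1.05 over 8 classes, and none passed 1.5-fold. Both comparisons use the same aneurysm library. In macrophage-like nuclei the ratio to smoke also rests on the smoke value for which Il31ra was picked.

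The direction between the aneurysm and smoke libraries depended on the scale. Counted per nucleus and not relative to all UMIs, macrophage-like nuclei held 0.725 Il31ra UMIs in room air, 0.303 in smoke and 0.214 in aneurysm. On that scale smoke stayed below room air, with a ratio of 0.418, and aneurysm lay below smoke, with a ratio of 0.708 (0.593 to 0.838). The ratio of aneurysm to smoke per nucleus was 0.480 (0.396 to 0.580) in fibroblast-like nuclei and 1.03 (0.858 to 1.24) in endothelial-like nuclei. The share of macrophage-like nuclei with an Il31ra UMI was likewise 46.2%, 24.1% and 17.7%, at medians of 5510, 8535 and 1560 UMIs per nucleus. When each nucleus was thinned to 1000 UMIs, the shares were 11.5%, 3.42% and 9.02%.

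No class was without the gene. In room air the lowest share of nuclei with an Il31ra UMI in any class was 27.7%, in T or NK-like nuclei, and the highest was 46.2%, in macrophage-like nuclei. In smoke the shares ran from 12.1% to 25.7% and in aneurysm from 12.2% to 22.0%. At 1000 UMIs per nucleus T or NK-like nuclei had 21.0% in room air and 5.61% in smoke, above the 11.5% and 3.42% of macrophage-like nuclei. Barcodes left out for too few genes or too many mitochondrial UMIs had 193, 129 and 142 CPM, above the nuclei kept in each library. No barcode of the matrices had under 500 UMIs, and the medians of those left out were 1346, 948 and 1215 UMIs. Since no class lay near 0, no class gave a background for Il31ra, and its shares are not read as expression by any 1 class.

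**Figure D2:**
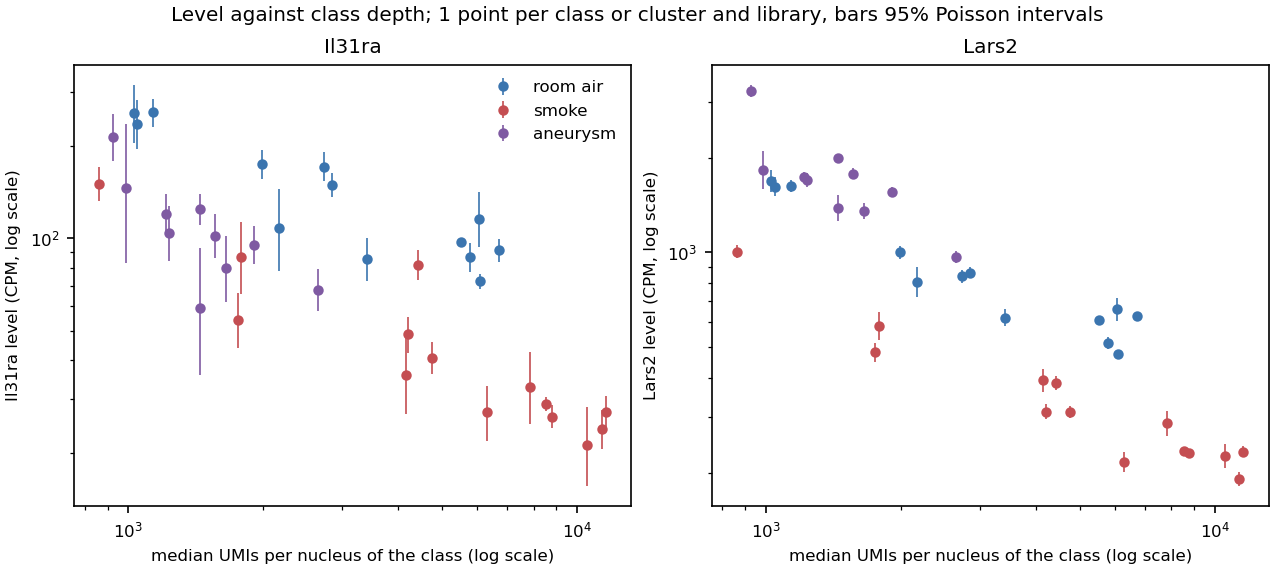
Level in CPM (vertical, log scale) of Il31ra (left) and Lars2 (right) against the median UMIs per nucleus of the class (horizontal, log scale), 1 point per class or cluster and library, with bars for 95% Poisson intervals. In each library both genes are highest in the shallowest classes, and no smoke class lies above the same class in room air.

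Within a library Il31ra was higher in classes with shallower nuclei. Pearson's r between its log2(CPM + 1) and the log2 median UMIs of the class was -0.93 over 8 room air classes, -0.79 over 9 smoke classes and -0.68 over 6 aneurysm classes. The classes of a library share that library, and the depth enters both axes, so r is a description. The same value for Il6st was 0.59, 0.41 and 0.59, and for Osmr it was 0.30, 0.25 and 0.26. Il31ra thus differed from its partner chain and from gp130 in how its level was spread over classes.

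The same held nucleus by nucleus. Room air nuclei with 500 to 1000 UMIs had 376 CPM of Il31ra and those above 16000 UMIs had 69.0 CPM, although Il31ra UMIs per nucleus went from 0.284 to 1.58. Smoke nuclei went from 194 to 26.8 CPM and from 0.144 to 0.612 UMIs per nucleus over those bins. Aneurysm nuclei went from 214 to 43.8 CPM, with 24 nuclei in the deepest bin. The UMI count per nucleus was higher in deeper nuclei, but by less than the depth.

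Nuclei of 1 class and like depth still differed between the libraries. In macrophage-like nuclei with 2000 to 4000 UMIs, Il31ra was at 155 CPM in room air, 51.2 CPM in smoke and 101 CPM in aneurysm. With 4000 to 8000 UMIs it was at 110, 34.1 and 89.3 CPM. With 1000 to 2000 UMIs it was at 190, 129 and 117 CPM, and there the smoke and aneurysm values were close. Smoke was thus below room air in each of these bins.

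**Figure D3:**
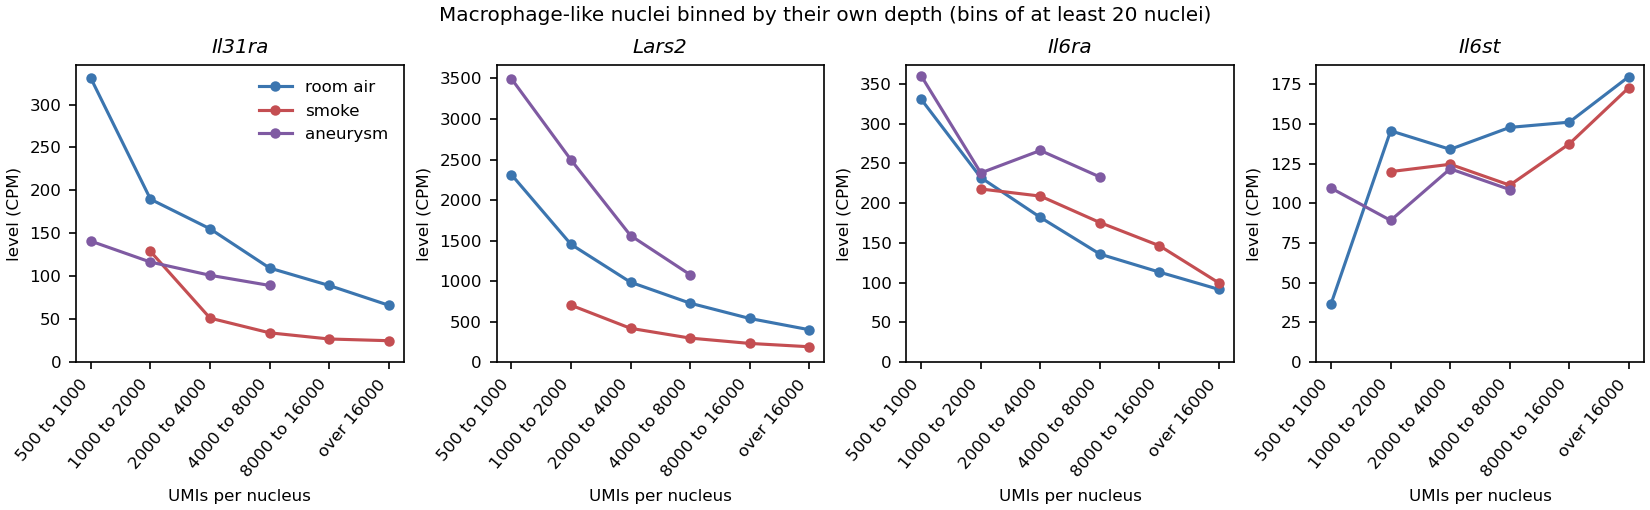
Level in CPM (vertical) of Il31ra, Lars2, Il6ra and Il6st in macrophage-like nuclei grouped by their own UMI count (horizontal), 1 line per library, bins of at least 20 nuclei. Il31ra and Lars2 go down with depth in every library, and smoke lies below room air for both in the bins from 1000 UMIs upward.

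The genes whose level over 23 class and library pairs was most like that of Il31ra were looked for among 14211 genes with at least 200 UMIs, by Pearson's r of log2(CPM + 1). Leaving out predicted Gm and Rik genes, they were Lars2 (the mitochondrial leucyl-tRNA synthetase) with 0.83, Cmss1 with 0.81, Taco1 (a translational activator of mitochondrial cytochrome oxidase) with 0.77, the small nucleolar RNA host gene Snhg5 with 0.73 and the mitochondrial gene mt-Nd3 with 0.66. The predicted genes Gm19951, Gm48099 and Gm15564, named after their values were seen, had 0.81, 0.81 and 0.80. None of the other members compared came near, with values from -0.19 for Il6st to 0.29 for Il6, and -0.08 for Osmr. Lif, with 86 UMIs over the pairs, was under the limit and was not compared. The pairs share libraries and depth.

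Lars2 and Il31ra parted in the aneurysm library. In macrophage-like nuclei Lars2 was at 612 CPM in room air, 234 CPM in smoke and 1777 CPM in aneurysm, a ratio of 0.38 between smoke and room air and of 7.59 between aneurysm and smoke. Cmss1 was at 1320, 630 and 3411 CPM there. The part of depth, of free RNA and of whatever sets the level of Lars2 and Cmss1 in the Il31ra difference was not tested.

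Osmr, which binds oncostatin M together with gp130 and interleukin 31 together with Il31ra, was a gene of stromal and endothelial nuclei. In fibroblast-like nuclei it was at 385 CPM (358 to 414) in room air, 391 CPM (371 to 411) in smoke and 365 CPM (335 to 398) in aneurysm. In endothelial-like nuclei it was at 302 CPM (294 to 311), 242 CPM (235 to 249) and 317 CPM (295 to 341). In smooth muscle-like nuclei it was at 167, 160 and 240 CPM. In CPM the fibroblast intervals overlapped in all 3 libraries, whereas the smoke library was the low one in endothelial-like nuclei, with a ratio to room air of 0.799 (0.767 to 0.833). Per nucleus the aneurysm library was the lowest in both classes. Its ratio to room air was 0.457 (0.408 to 0.512) in fibroblast-like and 0.479 (0.443 to 0.518) in endothelial-like nuclei.

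The unnamed clusters 7, 12 and 14 resembled those classes in Osmr. Cluster 7 had 341, 321 and 333 CPM, cluster 12 had 285, 287 and 309 CPM and cluster 14 had 255, 322 and 359 CPM. Macrophage-like nuclei had 5.56 CPM in room air, 4.71 CPM in smoke and 13.8 CPM in aneurysm, the last from 20 UMIs. The share of macrophage-like nuclei with an Osmr UMI was 4.02%, 4.67% and 2.89%, close to the 2.16% and 4.47% of B-like nuclei in room air and smoke, whose median depth was 1028 and 1786 UMIs. Such shares are read as background, and the aneurysm to smoke ratio of 2.92 (1.75 to 4.61) in macrophage-like nuclei rests on it.

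Il31ra and Osmr, the chains of 1 receptor, were found together in some endothelial-like nuclei. In room air 43.9% of nuclei with an Osmr UMI also had an Il31ra UMI, against 27.0% of nuclei without one. The shares were 22.9% and 16.4% in smoke and 22.4% and 21.6% in aneurysm. In aneurysm the order was the other way in fibroblast-like nuclei (17.5% and 20.7%), smooth muscle-like nuclei (9.09% and 13.8%) and macrophage-like nuclei (15.0% and 17.7%). With no background for Il31ra these shares describe shared detection and not shared expression. Deeper nuclei are more likely to hold both genes, and the shares were not set at equal depth.

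Osm was highest in monocyte-like nuclei and low elsewhere. Its level there was 67.0 CPM (58.3 to 76.6) in room air and 49.3 CPM (44.2 to 54.9) in smoke, with a ratio of 0.736 (0.618 to 0.878). Dendritic-like nuclei had 23.7 and 19.1 CPM. The aneurysm library had 44 monocyte-like nuclei and 15 dendritic-like nuclei, too few to give a level.

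Macrophage-like nuclei had 8.87 CPM of Osm (7.84 to 9.99) in room air, 11.5 CPM (10.6 to 12.5) in smoke and 5.50 CPM (2.38 to 10.8) in aneurysm, the last from 8 UMIs. The ratio of smoke to room air was 1.30 (1.12 to 1.51), in CPM the opposite direction to the monocyte-like nuclei. Per nucleus this ratio was 1.83 (1.58 to 2.12) in macrophage-like nuclei and 1.05 (0.879 to 1.25) in monocyte-like nuclei. Endothelial-like nuclei, which should lack the gene, had 3.67, 3.31 and 0.854 CPM, with a UMI in 2.74%, 2.58% and 0.333% of nuclei at medians of 6075, 8778 and 2647 UMIs. The shares in macrophage-like nuclei, 5.44%, 9.06% and 1.01%, were above these. Over all nuclei kept Osm was at 9.75, 10.4 and 2.28 CPM, and the aneurysm library also had the fewest monocyte-like and dendritic-like nuclei, whose part in that value was not tested.

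**Figure D4:**
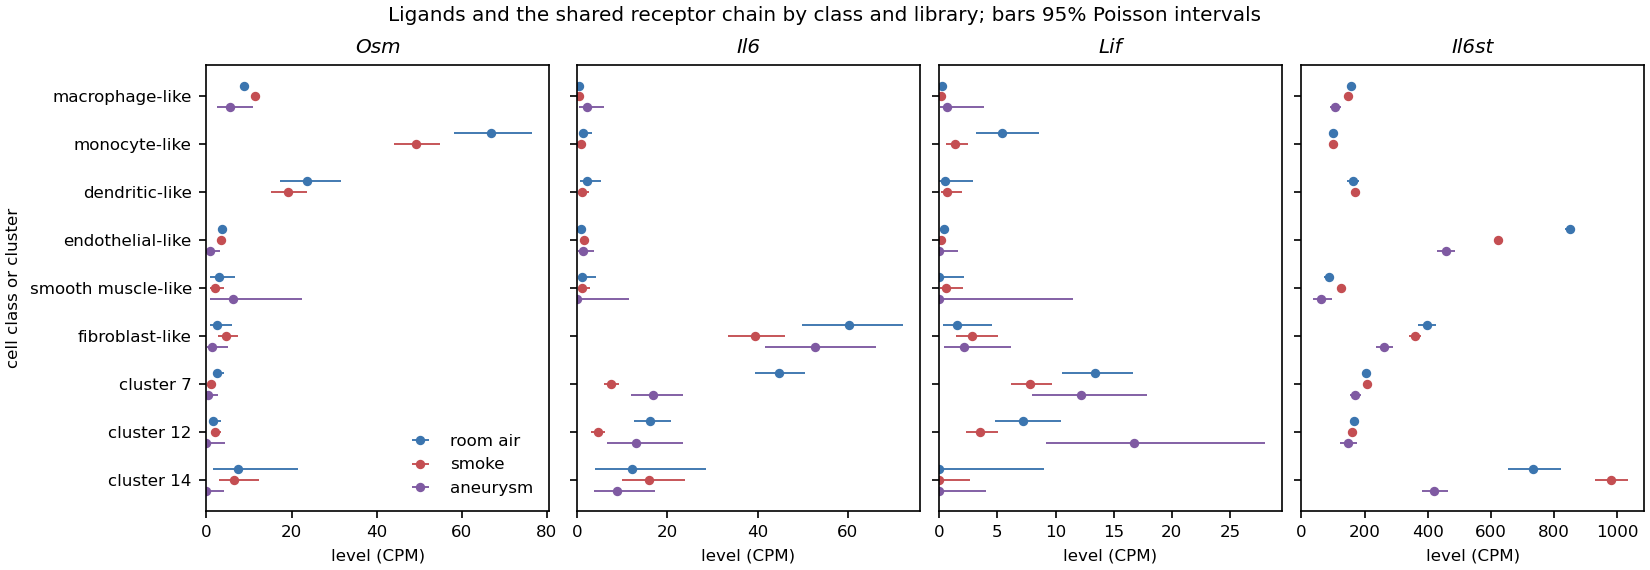
Level in CPM (horizontal) of the ligands Osm, Il6 and Lif and of the shared chain Il6st in 9 classes or clusters (vertical), 1 point per library with bars for 95% Poisson intervals. Osm is highest in monocyte-like nuclei, Il6 in fibroblast-like nuclei, Lif in clusters 7 and 12, and Il6st in endothelial-like nuclei and cluster 14.

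Il6 was found in fibroblast-like nuclei and in clusters 7, 12, 14 and 20, and hardly in macrophages. Fibroblast-like nuclei had 60.2 CPM (49.8 to 72.3) in room air, 39.4 CPM (33.4 to 46.1) in smoke and 52.8 CPM (41.5 to 66.2) in aneurysm. Cluster 7 had 44.7 CPM (39.5 to 50.5), 7.48 CPM (5.90 to 9.35) and 16.9 CPM (11.8 to 23.4). Cluster 12 had 16.2, 4.50 and 13.1 CPM. In CPM the smoke library was the lowest in each of the 3, and its interval did not overlap that of room air. Per nucleus the aneurysm library was the lowest in each, with 0.103 Il6 UMIs against 0.235 in smoke and 0.245 in room air in fibroblast-like nuclei. In cluster 14 smoke was not the lowest, and the ratio of aneurysm to smoke in CPM was 0.554. Per nucleus cluster 14 had 0.0495 Il6 UMIs in room air and 0.0909 in smoke, a ratio of 1.84 (0.679 to 6.21).

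These Il6 levels came from few nuclei. In cluster 7 the share of nuclei with an Il6 UMI was 5.29% in room air, 4.10% in smoke and 1.53% in aneurysm, and 38 of the 261 room air UMIs were in 1 nucleus. The ratio of smoke to room air was 0.167 (0.128 to 0.217) in cluster 7. It was 0.257 (0.196 to 0.332) for UMIs per nucleus, 0.173 without the nucleus with most UMIs, 0.404 when CPM was averaged over nuclei and 0.380 after thinning to 1000 UMIs. In fibroblast-like nuclei the ratio was 0.653 (0.510 to 0.839), but 0.818 without the nucleus that held 31 of the 116 room air UMIs, 0.941 after thinning and 0.958 (0.748 to 1.23) per nucleus.

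Macrophage-like nuclei had 0.393 CPM of Il6 in room air, 0.321 CPM in smoke and 2.06 CPM in aneurysm, the last from 3 UMIs, and endothelial-like nuclei had 0.837, 1.45 and 1.28 CPM. T or NK-like nuclei held no Il6 UMI in room air or smoke. The share of macrophage-like nuclei with an Il6 UMI, 0.294%, 0.317% and 0.434%, was no higher than the 0.659%, 0.708% and 0.499% of endothelial-like nuclei, and is read as background.

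Lif had the fewest UMIs of the members and was found in clusters 7 and 12. Cluster 7 had 13.4 CPM (10.6 to 16.7) in room air, 7.77 CPM (6.16 to 9.67) in smoke and 12.2 CPM (7.96 to 17.9) in aneurysm. Cluster 12 had 7.22, 3.5 and 16.7 CPM. In CPM smoke was the lowest in both, with ratios to room air of 0.582 and 0.485. Per nucleus these ratios were 0.892 (0.645 to 1.23) and 0.796 (0.454 to 1.39), and in cluster 7 aneurysm was the lowest, with a ratio to smoke of 0.333 (0.205 to 0.524). In cluster 12 the ratio of aneurysm to smoke was 4.78 in CPM and 0.987 (0.480 to 1.94) per nucleus. Monocyte-like nuclei had 5.37 CPM from 17 UMIs in room air and 1.32 CPM from 9 UMIs in smoke. Macrophage-like nuclei had 0.229, 0.180 and 0.688 CPM, the last from 1 UMI, and Lif was left out of their ratios.

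Lifr, the signalling receptor of leukaemia inhibitory factor, marked 1 macrophage-like cluster. In cluster 19 its level was 766 CPM (670 to 873) in room air, 659 CPM (611 to 709) in smoke and 595 CPM (532 to 662) in aneurysm. A Lifr UMI was present in 63.9%, 77.5% and 49.3% of its nuclei. Cluster 4 had 45.7, 35.5 and 64.9 CPM, and clusters 3, 5 and 10 had between 2.78 and 13.9 CPM in the 3 libraries. Cluster 19 was defined by the nuclei's own genes, so its Lifr level describes the cluster and is no test.

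Over the whole macrophage-like class Lifr was at 18.7 CPM in room air, 25.8 CPM in smoke and 241 CPM in aneurysm. The ratio of aneurysm to smoke was 9.37 (8.30 to 10.6) for the class and 0.903 within cluster 19. Cluster 19 was 48.8% of the class in aneurysm.

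**Figure D5:**
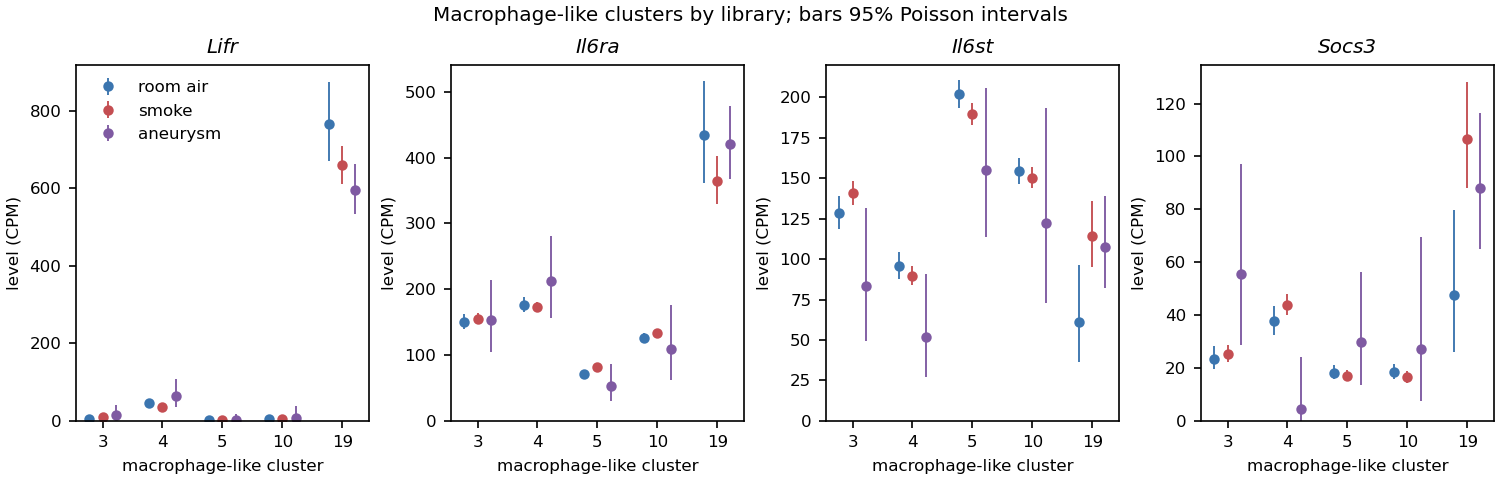
Level in CPM (vertical) of Lifr, Il6ra, Il6st and Socs3 in the 5 macrophage-like clusters (horizontal), 1 point per library with bars for 95% Poisson intervals. Lifr and Il6ra are highest in cluster 19 in all 3 libraries, and for these genes the libraries lie closer to each other within cluster 19 than in the class as a whole.

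Outside macrophages Lifr was highest in cluster 14, with 238 CPM in room air, 388 CPM in smoke and 245 CPM in aneurysm, and in fibroblast-like nuclei. Fibroblast-like nuclei had 134 CPM (118 to 151), 224 CPM (209 to 239) and 180 CPM (159 to 204), and the 3 intervals did not overlap. The ratio of smoke to room air was 1.67 (1.45 to 1.92), and it was 2.24 after thinning. Per nucleus the aneurysm library was the lowest, with a ratio to room air of 0.647 (0.542 to 0.773). Endothelial-like nuclei had 126, 134 and 125 CPM, with overlapping intervals. In smooth muscle-like nuclei Lifr was at 62.6, 81.8 and 187 CPM, but 13 of the 60 aneurysm UMIs were in 1 nucleus and the ratio of aneurysm to smoke went from 2.29 to 0.641 after thinning. B-like nuclei had 77.0 CPM from 26 UMIs in room air and 42.8 CPM from 28 UMIs in smoke, a ratio of 0.556 (0.314 to 0.986).

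Il6ra, the alpha receptor that gives interleukin 6 its specificity, had its highest level in a myeloid class in each library. Other nuclei also held it. Cluster 1 had 0.282, 0.236 and 0.168 UMIs per nucleus in room air, smoke and aneurysm, at medians of 1138, 861.5 and 927 UMIs. T or NK-like nuclei had 0.138 and 0.271 in room air and smoke, at medians of 1047.5 and 1753 UMIs. Dendritic-like nuclei had 259 CPM (236 to 282) in room air and 269 CPM (254 to 285) in smoke, and monocyte-like nuclei had 210 CPM (194 to 227) and 247 CPM (235 to 259). Macrophage-like nuclei had 122 CPM (118 to 126), 135 CPM (132 to 138) and 239 CPM (215 to 266) in room air, smoke and aneurysm. In CPM the aneurysm value was the high one, with a ratio to smoke of 1.78 (1.59 to 1.98). Per nucleus it was the low one, at 0.504 UMIs against 1.42 in smoke and 0.915 in room air, a ratio to smoke of 0.355 (0.318 to 0.395). Median depth was 1560 UMIs in aneurysm, 8535 in smoke and 5510 in room air. In nuclei with 2000 to 4000 UMIs the level was 182 CPM in room air, 209 CPM in smoke and 266 CPM in aneurysm. With 4000 to 8000 UMIs it was 136, 176 and 233 CPM, and with 1000 to 2000 UMIs 232, 218 and 238 CPM.

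The Il6ra level also differed between the macrophage-like clusters. Cluster 19 had 434, 365 and 421 CPM of Il6ra in the 3 libraries, and cluster 3 had 151, 155 and 153 CPM. Within clusters the ratio of aneurysm to smoke was 0.983 in cluster 3, 1.23 in cluster 4, 0.649 in cluster 5, 0.817 in cluster 10 and 1.15 in cluster 19, and the interval of each included 1. The part of the class makeup in the ratio of 1.78 was not tested beyond these values. Fibroblast-like nuclei had 59.7, 65.1 and 115 CPM, a ratio of aneurysm to smoke of 1.76, and endothelial-like nuclei had 17.8, 23.5 and 12.8 CPM. Per nucleus the fibroblast-like ratio of aneurysm to smoke was 0.579 (0.472 to 0.707).

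Il6st, which encodes gp130, had UMIs in every class. It was highest in endothelial-like nuclei in room air and aneurysm and in the unnamed cluster 14 in smoke. Endothelial-like nuclei had 850 CPM (836 to 865) in room air, 623 CPM (612 to 634) in smoke and 458 CPM (431 to 486) in aneurysm, and no 2 of these intervals overlapped. The ratio was 0.733 for smoke to room air, 0.734 (0.689 to 0.782) for aneurysm to smoke and 0.538 (0.505 to 0.573) for aneurysm to room air. The order was the same in both endothelial-like clusters, with 966, 774 and 472 CPM in cluster 6 and 407, 315 and 239 CPM in cluster 9.

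The aneurysm library was also the lowest for Il6st in the fibroblast-like, macrophage-like and smooth muscle-like classes and in cluster 14. Fibroblast-like nuclei had 398, 359 and 261 CPM, macrophage-like nuclei 156, 147 and 107 CPM, and smooth muscle-like nuclei 86.0, 125 and 62.5 CPM. Cluster 14 had 735, 981 and 422 CPM. Over 9 classes the ratio of aneurysm to smoke ran from 0.430 to 0.922, below 1 in each, and it was at least 1.5-fold lower in 4 of the 9, where between 16.1% and 27.7% of measured genes were. The aneurysm library was also the shallowest, and thinning left the endothelial ratio of aneurysm to room air at 0.601.

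Among macrophage-like nuclei the Il6st difference was smaller at like depth and was not found in each cluster. With 2000 to 4000 UMIs per nucleus Il6st was at 134 CPM in room air, 125 CPM in smoke and 122 CPM in aneurysm, and with 4000 to 8000 UMIs at 148, 111 and 109 CPM. The smoke and aneurysm values were thus close in these bins, and with 1000 to 2000 UMIs they were 120 and 89.2 CPM. Within cluster 19 Il6st was at 61.0 CPM in room air from 18 UMIs, 114 CPM in smoke and 108 CPM in aneurysm. The ratio of aneurysm to room air there was 1.77 (1.03 to 3.18), the opposite direction to the 0.683 of the class, and between 0.543 and 0.792 in clusters 3, 4, 5 and 10.

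Osmr, Il6ra and Lifr, whose products act with gp130, were found more often in nuclei with an Il6st UMI. In endothelial-like nuclei Osmr was present in 69.5% of nuclei with an Il6st UMI and in 33.2% of those without one in room air, in 71.3% and 42.3% in smoke, and in 60.7% and 34.3% in aneurysm. In macrophage-like nuclei Il6ra was present in 51.6% and 42.4%, 65.7% and 53.0%, and 44.3% and 30.6%. Lifr was present in 50.2% and 28.9% of endothelial-like nuclei with and without an Il6st UMI in room air, 57.0% and 38.3% in smoke and 36.3% and 18.1% in aneurysm. The direction was the same in all 3 libraries for these pairs. Nuclei with more UMIs hold more of any gene, and equal depth was not set.

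Socs3, the feedback inhibitor of gp130 signalling, was at 22.8 CPM (21.1 to 24.5) in macrophage-like nuclei in room air, 26.0 CPM (24.6 to 27.5) in smoke and 51.6 CPM (40.6 to 64.7) in aneurysm. The ratio of smoke to room air was 1.14 (1.04 to 1.25), and that of aneurysm to smoke was 1.98 (1.55 to 2.50). In CPM the aneurysm level was the high one in the class as a whole, whereas per nucleus it was the low one, at 0.109 UMIs against 0.170 in room air and 0.274 in smoke.

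The macrophage-like clusters differed in the direction of Socs3 between aneurysm and smoke. In cluster 19 Socs3 was at 47.5, 107 and 88 CPM in the libraries in that order, and the ratio of aneurysm to smoke was 0.825 (0.578 to 1.16). In cluster 4 it was at 37.7, 43.9 and 4.33 CPM, the last from 1 UMI. In clusters 3, 5 and 10 the ratio was 2.21, 1.75 and 1.65, from 12, 9 and 4 aneurysm UMIs.

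Other classes had Socs3 levels of the same order. Dendritic-like nuclei had 50.0 CPM in room air and 73.7 CPM in smoke, a ratio of 1.48. Fibroblast-like nuclei had 55.6, 70.5 and 49.3 CPM, and endothelial-like nuclei 19, 25.4 and 20.5 CPM. In these 3 classes smoke was above room air, whereas monocyte-like nuclei had 58.1 CPM in room air and 50.8 CPM in smoke. Per nucleus smoke was above room air in monocyte-like nuclei as well, with a ratio of 1.24 (1.04 to 1.49). T or NK-like nuclei had 15.3 CPM from 8 UMIs and 35.3 CPM from 63 UMIs, a ratio of 2.30.

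Counted together in macrophage-like nuclei, 8 of the 9 members had at least 20 UMIs in the smoke and room air libraries together. Of these, 0 were at least 1.5-fold higher in smoke, where 10.6% of 16661 genes were, and 1 was at least 1.5-fold lower, where 4.99% were. The 1 gene was Il31ra, which had been picked for it, and nothing is read from the count. The median log2 ratio of the 8 was 0.03, beside 0.02 over all genes measured.

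Between the aneurysm and smoke libraries 7 members could be measured in macrophage-like nuclei. Il31ra, Osmr, Lifr, Il6ra and Socs3 were at least 1.5-fold higher, 5 of 7 where 21.5% of genes were, and Osm was at least 1.5-fold lower, 1 of 7 where 16.1% of genes were. Il31ra was picked for the low smoke value that is the denominator here, and Osmr was read as background. Nothing is read from this count. Between aneurysm and room air 4 of 7 were higher, where 21% of genes were, and 1 was lower, where 14.9% were. Counted as UMIs per nucleus, at medians of 1560 UMIs in aneurysm and 8535 in smoke, 4 of the 5 higher in aneurysm than in smoke turned: the ratio was 0.708 for Il31ra, 0.583 for Osmr, 0.355 for Il6ra and 0.396 for Socs3, while Lifr stayed higher at 1.87. Within cluster 19, 6 members could be measured, and Il31ra and Osmr were at least 1.5-fold higher in aneurysm than in smoke, 2 of 6 where 19.3% of genes were. Between aneurysm and room air 5 members could be measured in cluster 19. Il6st and Socs3 were higher, 2 of 5 where 22.8% of genes were, and Il31ra was lower, 1 of 5 where 13.1% were. Il31ra, at 1.05 between aneurysm and room air in the class, was at 0.587 (0.367 to 0.942) within cluster 19.

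In fibroblast-like nuclei Lifr and Osm were higher in smoke than in room air, 2 of 8 where 16.4% of genes were, and Il31ra and Il6 were lower, 2 of 8 where 5.41% were. Osm rested there on 5 and 18 UMIs. In endothelial-like nuclei Il31ra was the 1 of 8 that was lower in smoke, where 3.35% of genes were, and Il6 the 1 of 8 that was higher, where 13.8% were, from 13 and 28 UMIs. In cluster 7 the members lower in smoke were Il31ra, Osm, Lif and Il6, 4 of 9 where 4.76% of genes were. In CPM all 3 ligands were thus lower in smoke in that cluster. Osm was at 2.57 and 1.07 CPM from 15 and 11 UMIs, no higher than in endothelial-like nuclei, which should lack it. Per nucleus the ratio of smoke to room air was 0.638 (0.265 to 1.49) for Osm, 0.892 (0.645 to 1.23) for Lif and 0.257 (0.196 to 0.332) for Il6.

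In cluster 12 Il31ra, Lif and Il6 were lower in smoke than in room air, 3 of 9 where 4.77% of genes were. Among myeloid nuclei Il31ra and Osmr were lower in dendritic-like nuclei, 2 of 7 where 5.54% of genes were, and Il31ra and Lif in monocyte-like nuclei, 2 of 8 where 5.86% were. T or NK-like nuclei had Osm and Socs3 higher in smoke, 2 of 7 where 15.8% of genes were, and Il31ra lower, 1 of 7 where 10.3% were. In smooth muscle-like nuclei Il31ra was the 1 of 6 that was lower in smoke, where 5.43% of genes were. The gene common to all of these lists was Il31ra.

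Between aneurysm and smoke, smooth muscle-like nuclei had Il31ra, Osmr, Lifr and Il6ra higher, 4 of 6 where 15.2% of genes were, and Il6st lower, 1 of 6 where 24.7% were. Per nucleus all 4 turned, to 0.649, 0.445, 0.678 and 0.560, and Lifr turned also after thinning. Fibroblast-like nuclei had Il6ra higher, 1 of 8 where 14.8% of genes were, and Osm lower, 1 of 8 where 20.2% were, the latter from 2 aneurysm UMIs. Per nucleus Il6ra turned there too, to 0.579. Between aneurysm and room air Osm and Il6st were lower in endothelial-like nuclei, 2 of 7 where 16% of genes were, and Il6st was lower in fibroblast-like nuclei, 1 of 7 where 13% were. Il6ra, Il6st and Socs3 were lower in cluster 14, 3 of 6 where 15.6% of genes were. In adipocyte-like nuclei, at 196 in smoke and 1229 in aneurysm, Il6st was at 105 and 60.8 CPM, Lifr at 80.4 and 57.9 CPM and Il6ra at 96.0 and 95.7 CPM.

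Of the 45 other genes of the pathway, 39 could be measured in macrophage-like nuclei between smoke and room air, and their median log2 ratio was -0.02. The STAT target Junb was at 69.1 CPM in room air and 118 CPM in smoke, a ratio of 1.71 (1.63 to 1.80). The acute phase gene Serpina3n was at 0.458 and 1.72 CPM, a ratio of 3.76 (2.13 to 7.17). Il27, which encodes a subunit of interleukin 27, was at 3.21 and 2.11 CPM, a ratio of 0.657 (0.494 to 0.874). At 2 of 39 higher and 1 lower these counts were below the shares of all genes, 10.6% and 4.99%. None of the 11 JAK, STAT and adaptor genes and none of the 6 other inhibitors passed 1.5-fold.

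Serpina3n was also higher in smoke in endothelial-like nuclei, at 2.57 and 14.4 CPM with a ratio of 5.61 (4.02 to 8.02), and in smooth muscle-like nuclei with a ratio of 4.51. Endothelial-like nuclei had 5 of 38 measured pathway genes higher in smoke, where 13.8% of all genes were, and 1 lower, where 3.35% were, which is near the background. Junb was among them, at 95.1 and 156 CPM with a ratio of 1.64 (1.54 to 1.74). Between aneurysm and smoke the endothelial-like nuclei had 5 of 35 higher, where 10.4% of all genes were, and 8 lower, where 22.1% were, and Serpina3n was at 3.42 CPM in aneurysm.

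Between aneurysm and smoke 7 of 39 pathway genes were higher in macrophage-like nuclei, where 21.5% of all genes were, and 2 lower, where 16.1% were, so neither count exceeded the background. The acute phase gene Saa3 was at 1.62 CPM in smoke and 78.4 CPM in aneurysm, a ratio of 48.3 (36.0 to 65.0). Saa3 was also at least 1.5-fold higher in aneurysm within cluster 19 and in endothelial-like nuclei, the latter at 0.931 and 7.26 CPM. The part of class makeup and of RNA from other cells in the ratio was not tested. In macrophage-like nuclei Jak2, a kinase that acts on these receptors, was at 92.4 and 58.5 CPM, a ratio of 0.633. The STAT target Pim1 was at 169 and 101 CPM there, a ratio of 0.597. The ciliary neurotrophic factor receptor Cntfr was at 9.87 CPM in room air, 19.3 CPM in smoke and 31.0 CPM in aneurysm in fibroblast-like nuclei.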

How the data were processed

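Nuclei from frozen abdominal aortae were purified with anti-nucleus beads on a magnetic column, per the labels' protocols. The deposited files are matrices of UMI counts per gene and barcode, 1 per library, made by the authors. The mm10 build, STAR and Cell Ranger 2.2.0 are listed by the submitters' processing notes, but the file headers name cellranger 8.0.1, and which made the counts could not be settled. No source states the use of strand or of intronic reads.

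A barcode was kept as a nucleus if it had 500 or more UMIs, 300 or more genes and under 5% mitochondrial UMIs. Counts were scaled to 10000, logged, reduced to 2000 variable genes and 30 principal components, and clustered with 20 neighbours and Leiden resolution 1 in scanpy 1.11.5 (python 3.11.15), with no integration. A cluster was named where its marker score was at least 0.5 and led the next class by 0.5, limits set after seeing the data, with at least 3 markers in 5% of its nuclei. Names were rebuilt here and may differ from the study's. Scrublet marked 3.33%, 2.89% and 0.0175% of the nuclei as doublets, had not worked in the aneurysm library, and no nucleus was removed.

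The UMIs of all nuclei in a class were added up for each library. CPM have exact Poisson intervals, shares Clopper-Pearson intervals and ratios exact conditional binomial intervals (scipy 1.17.1), which cover counting error only. UMIs were counted, so amplified copies of a molecule count 1 time. Ratios needed at least 20 UMIs in both libraries together. The interval and ratio code was tested on simulated data. The 9 members, the pathway lists and the rule for named genes (up to 4 list genes per direction and comparison, farthest from a ratio of 1) were chosen with earlier results of these data known. A gene of the lists is not reported here. Alternatives covered filters, clustering, doublets, size factors, thinning, averaging over nuclei, single clusters and leaving out the nucleus with most UMIs of a gene.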

Additional observations from a re-analysis of the deposited data

How the results depend on the processing

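No paired analysis was possible because each group is 1 library. Il31ra in macrophage-like nuclei stayed lower in smoke than in room air under all 18 alternatives (0.207 to 0.418 beside 0.297). The value moved to 0.418 for UMIs per nucleus, 0.265 within cluster 4 and 0.207 within cluster 19. Its aneurysm to smoke ratio of 3.54 moved to 4.23 at resolution 0.5, 4.72 when libraries were clustered one by one, 2.74 after thinning, and 2.69, 4.93, 5.76 and 2.84 within clusters 3, 5, 10 and 19. It turned to 0.708 for UMIs per nucleus, an alternative chosen after seeing the data. That scale also turned it in smooth muscle-like nuclei (0.649), adipocyte-like nuclei (0.834) and clusters 7 (0.743), 12 (0.693) and 14 (0.936). Fibroblast-like nuclei (0.480) and cluster 1 (0.896), under 1.5-fold in CPM, were below 1 on it as well. The Socs3 ratio of smoke to room air of 1.14 moved to 1.35 for CPM averaged over nuclei, 0.927 and 0.896 within clusters 5 and 10, and 2.25 within cluster 19. The count of members past 1.5-fold went from 1 to 2 without the highest Scrublet scores, for averaged CPM, after thinning and within clusters 3 and 4, and to 3 within cluster 19.

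Of 1643 further alternative values for 180 ratios, 1419 stayed within the counting interval of the main value, 200 moved beyond it and 24 turned. Within macrophage-like clusters, aneurysm to smoke turned for Osm (1.45, cluster 10), Lifr (0.903, cluster 19), Il6ra (0.983, 0.649 and 0.817, clusters 3, 5 and 10) and Socs3 (0.0985 and 0.825, clusters 4 and 19). Aneurysm to room air turned for Osmr (0.904, cluster 4), Lifr (0.776, cluster 19), Il6ra (0.741, 0.862 and 0.969, clusters 5, 10 and 19) and Socs3 (0.115, cluster 4). Il6st and Il31ra, both under 1.5-fold in the class (0.683 and 1.05), crossed to 1.77 and 0.587 within cluster 19. For UMIs per nucleus, values of the other members are given beside their levels for part of the classes only. In smooth muscle-like nuclei Lifr turned after thinning (0.641 and 0.794 against smoke and room air) and Il6ra when libraries were clustered one by one (0.693). Lifr in B-like nuclei turned in smoke to room air with no filter (2.00), no mitochondrial limit (1.40) and resolutions 0.5 (1.60) and 2 (2.02). Where a cluster was taken alone the shares of the macrophage-like clusters no longer enter, but the makeup inside a cluster was not tested. For the other settings the cause was not tested. Depth limits Osm, Lif and Il6, whose levels rest on few UMIs in aneurysm.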
